A study of Ictidomys tridecemlineatus with 31 samples.

Results

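Arginine sits where several kidney pathways meet. In the proximal tubule, argininosuccinate synthase (Ass1) joins citrulline and aspartate, and argininosuccinate lyase (Asl) splits the product into arginine and fumarate, so that the kidney makes arginine for the rest of the body. Arginine is then used by arginase 2 (Arg2), which forms urea and ornithine in mitochondria, or by glycine amidinotransferase (Gatm), which begins creatine synthesis and is followed by guanidinoacetate methyltransferase (Gamt). Ornithine aminotransferase (Oat) moves ornithine toward glutamate and proline, proline dehydrogenase (Prodh) begins proline breakdown, ornithine decarboxylase (Odc1) commits ornithine to polyamines, and dimethylarginine dimethylaminohydrolase 1 (Ddah1) degrades methylated arginines that inhibit nitric oxide synthases.

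The 9 enzymes were chosen by symbol, and each had 1 row among the 12863 genes of the table of kidney RNA from the 13-lined ground squirrel. Prodh was listed by the authors as a PRODH-like gene, named from its human match, and the other 8 were listed under their own symbols. The animals were captive males and females fitted with temperature devices, and the 6 states were set by time and body temperature. SA (summer active) and SpD (spring dark, warm again but still housed in the dark cold room) are active states, and IBA (interbout aroused), Ent (entering torpor), EAr (early in arousal) and LAr (later in arousal) belong to hibernation. After 2 animals that the authors set aside, K113 (LAr) and K137 (SA), 29 animals remained, 4 in SA and 5 in each other state, with 16 females and 13 males. Experiment 1 (9 animals, in IBA, Ent and SpD only) used the TruSeq kit, and experiment 2 (22 animals, in all 6 states) used the Nugen kit. The age of the animals is not given in the sources used here. Values are batch-corrected rlog values on the log2 scale, not divided by transcript length, so levels of different genes are not compared. No counts were analysed, so the depth is unknown and the error is the spread between animals.

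All 12 of the proximal tubule markers found (of 13 searched) had values, and their mean lay between 13.25 and 15.41 in the 29 animals, while none of the 3 erythroid markers had a row. One animal needs naming before the results. K130 (SpD, experiment 2, male) lay outside the range of the other 4 SpD animals for all 9 enzymes, above it for 3 and below it for 6, and its proximal tubule marker mean was 13.25 against 14.40 to 15.22 in the others. The authors kept K130, so it is in the 29. Values without it are given beside many results of the 9 enzymes, but not for the further pathway genes named below. K113 lay outside its state for 7 enzymes (2 above, 5 below) and K137 for 6 (1 above, 5 below).

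Between the hibernation and active seasons, 2 enzymes changed at the study's threshold of q under 0.001 and both fell in hibernation, Prodh 1.63-fold and Oat 1.24-fold. With q under 0.05, Ass1, Arg2 and Gatm were also lower in hibernation, by 1.63-fold, 1.56-fold and 2.29-fold, and Asl was 1.52-fold higher. Gamt, Odc1 and Ddah1 did not pass in this contrast. At this looser threshold the enzymes that make and break argininosuccinate thus differed in opposite directions between seasons. For Asl the difference did not pass against SA alone (limma q = 0.17), and within experiment 1 hibernation (IBA and Ent) minus SpD was 0.046. For Ass1 it missed 0.05 in experiment 2 alone (-0.47, limma q = 0.070). The season contrast is the mean of IBA, Ent, EAr and LAr minus the mean of SA and SpD in a limma fit with sex and library kit as terms, and q is the Benjamini-Hochberg adjusted p over all genes. Of all genes, 9.73% were called at 0.001 and 33.4% at 0.05 in this contrast, beside 2 and 6 of the 9 enzymes. The median difference of the 9 was -0.31, beside 0.00024 over all genes.

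**Figure D1:**
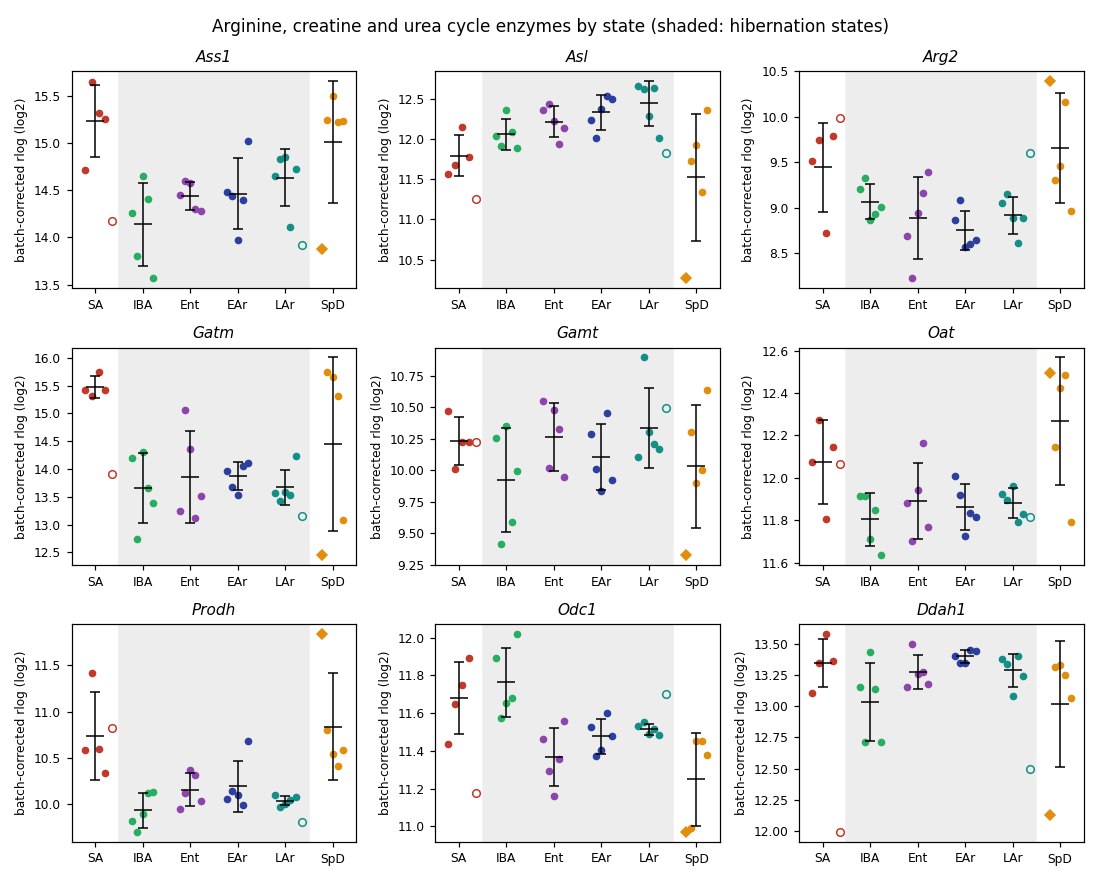
Batch-corrected rlog values (log2, vertical axes) of the 9 enzymes in each state; points are animals, bars the mean ± SD of the 29 animals, the diamond is K130, and hollow points are K113 and K137, which are not in the bars. Hibernation states are shaded. Prodh sat between 9.70 and 10.68 in hibernation and between 10.33 and 11.84 in the active states.

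Ass1 stood at 14.72, 15.26, 15.32 and 15.65 in the 4 SA animals. In SpD it was 15.22, 15.23, 15.25 and 15.50 in 4 animals and 13.88 in K130. The 20 hibernating animals ranged from 13.57 to 15.03 with a median of 14.45. Thus 7 of the 9 active animals were above every hibernating animal, and K130 and 1 SA animal were within their range. The season difference was -0.71 ± 0.15 (SE, 20 against 9 animals, limma q = 0.00104), and without K130 it was -0.84 (q = 4.5e-05). Hibernation (IBA and Ent) minus SpD was -1.09 within experiment 1 and -0.17 within experiment 2, or -0.85 there without K130. The state mean was lowest in IBA, at 14.14 ± 0.44 (SD, n = 5), and Ent (14.44), EAr (14.46) and LAr (14.63) followed without a difference between neighbours that passed q under 0.05.

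Asl, the next step, stood at 11.56, 11.68, 11.78 and 12.15 in SA. In SpD it was 10.27 in K130 and 11.33, 11.73, 11.92 and 12.36 in the others. The hibernating animals ranged from 11.89 to 12.66 with a median of 12.26. Here 6 of 9 active animals lay below every hibernating animal and 3 were within their range. The season difference was 0.60 ± 0.15 (SE, q = 0.0033), or 0.43 (q = 0.0031) without K130. Against SpD alone it was 0.82 (95% CI 0.41 to 1.22, q = 0.0048), and against SA alone 0.39 (95% CI -0.05 to 0.83, q = 0.17). The difference between hibernation (IBA and Ent) and SpD was 0.046 in experiment 1 and 1.46 in experiment 2, or 0.93 there without K130, so the higher Asl in hibernation was not seen in the 9 animals of experiment 1. In experiment 2, hibernating animals were on average 0.53 above SA.

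Taking Asl from Ass1 within each animal gave a log2 difference that split the seasons. It was 3.16, 3.17, 3.48 and 3.97 in SA. In SpD it was 2.87, 3.52, 3.58, 3.61 and 3.89. Across the 20 hibernating animals it ranged from 1.48 to 2.71. No active animal overlapped with a hibernating one, and the set-aside animals lay with their own season, K137 at 2.92 and K113 at 2.10. For single enzymes they did not always do so. K137 (SA) was inside the hibernation range for Ass1, at 14.18, and for Gatm, at 13.92. K113 (LAr) was above all 20 hibernating animals for Arg2, at 9.60, and below them for Asl, at 11.82. K130, which was low for both genes, was at 3.61, inside the SpD range. State means were 3.44 ± 0.38 in SA, 2.08 ± 0.28 in IBA, 2.23 ± 0.13 in Ent, 2.13 ± 0.39 in EAr, 2.19 ± 0.49 in LAr and 3.49 ± 0.38 in SpD (SD, n = 4 in SA and 5 elsewhere). Of the 36 differences that can be formed between pairs of the 9 enzymes, this was the 1 without overlap between seasons, both in 29 and in 31 animals. Alone, none of the 9 enzymes separated the seasons without overlap, which 0.303% of all genes did. That share is for single genes, and the share of all gene pairs was not computed, so the 1 of 36 has no background beside it. The animals nearest to each other across the seasons were K9 (SpD) at 2.87 and K116 (LAr) at 2.71. The difference between Ass1 and Asl was singled out after its values were seen, so it carries no test.

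**Figure D2:**
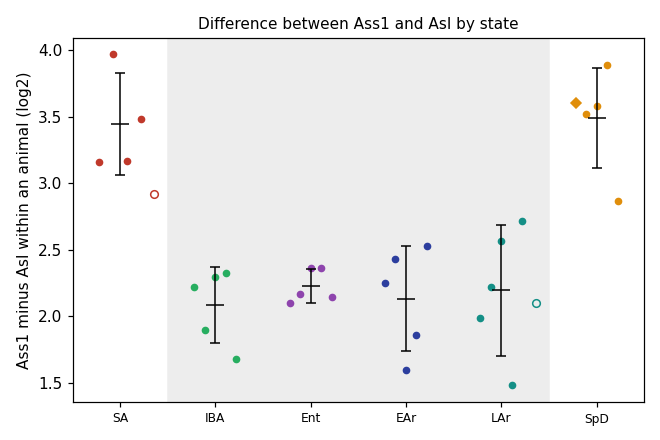
Ass1 minus Asl within each animal (log2, vertical axis) by state; bars are the mean ± SD of the 29 animals, the diamond is K130 and hollow points are K113 and K137. SA and SpD animals sit between 2.87 and 3.97 and hibernating animals between 1.48 and 2.71.

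Arg2 stood at 8.72, 9.51, 9.74 and 9.79 in SA. In SpD it was 8.97, 9.30, 9.46, 10.16 and, in K130, 10.39. The hibernating animals ranged from 8.22 to 9.39 with a median of 8.91. Here 6 of 9 active animals were above all hibernating ones and 3 were within their range. The season difference was -0.65 ± 0.14 (SE, q = 0.00101), or -0.51 (q = 0.0014) without K130. Against SA alone it was -0.53 (q = 0.046) and against SpD alone -0.76 (q = 0.0045). Within experiment 1 hibernation (IBA and Ent) minus SpD was -0.13, and within experiment 2 it was -1.51, or -1.39 without K130. For Arg2 too the contrast with SpD was thus small in experiment 1, which holds K9, the lowest SpD animal at 8.97. Without K9 the season difference went from -0.65 to -0.71 (limma q = 4.8e-04). The state means of the hibernation group, from 8.75 in EAr to 9.06 in IBA, gave no neighbouring pair past q under 0.05.

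Gatm, the entry to creatine synthesis, had the widest range of the 9. SA animals stood close together at 15.31, 15.42, 15.43 and 15.75. SpD animals formed a high set at 15.31, 15.65 and 15.75 and a low pair at 12.45 (K130) and 13.09 (K9). Hibernating animals ranged from 12.75 to 15.05 with a median of 13.63. All 4 SA animals and 3 SpD animals were above every hibernating animal, K9 was within their range and K130 was below it. The season difference was -1.20 ± 0.31 (SE, q = 0.0049), -1.47 (q = 2.7e-04) without K130 and -1.39 (q = 0.0012) without K9. Against SA alone it was -1.80 (95% CI -2.71 to -0.88, q = 0.0039), a 3.47-fold lower level, and against SpD alone -0.60 (95% CI -1.44 to 0.24, q = 0.30). The SD in SpD, 1.56, was above that of any other state. Hibernation minus SpD was -1.12 in experiment 1 and -0.045 in experiment 2, where it became -1.48 without K130.

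Gamt, which completes creatine synthesis, did not follow Gatm. Its state means ran from 9.92 ± 0.41 in IBA to 10.33 ± 0.32 in LAr (SD, n = 5), and the season difference was 0.023 (95% CI -0.25 to 0.29, q = 0.91). Apart from K130, at 9.33, every animal of SA (10.01 to 10.47) and SpD (up to 10.64) lay inside the hibernation range of 9.41 to 10.89. Gamt and Ddah1 were the 2 enzymes that did not pass q under 0.05 across the 6 states.

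Oat stood at 11.81, 12.07, 12.15 and 12.27 in SA. In SpD it was 11.79, 12.14, 12.42, 12.48 and, in K130, 12.49. The hibernating animals ranged from 11.63 to 12.16 with a median of 11.86, and 4 of 9 active animals were above them all. The fall in hibernation was 0.31 on the log2 scale, the estimate being -0.31 ± 0.063 (SE, q = 5.9e-04). Without K130 it was -0.27 (q = 0.0015), past the 0.001 threshold no longer. Against SpD alone the difference was -0.42 (q = 0.0012) and against SA alone -0.21 (q = 0.086). Hibernation minus SpD had the same sign in both experiments, -0.24 in experiment 1 and -0.69 in experiment 2.

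Prodh had the smallest season q of the 9. It stood at 10.33, 10.59, 10.60 and 11.42 in SA. In SpD it was 10.42, 10.54, 10.59, 10.80 and, in K130, 11.84. The hibernating animals ranged from 9.70 to 10.68 with a median of 10.06, and the 1 animal above 10.37 among them was K165 (EAr). Thus 3 of 9 active animals were above every hibernating animal, and the others overlapped with the upper end of their range. The season difference was -0.71 ± 0.13 (SE, q = 1.8e-04), and without K130 it was -0.57 (q = 1.1e-04). Against SA alone it was -0.64 (q = 0.010) and against SpD alone -0.78 (q = 0.0021), and SA minus SpD was -0.14 (95% CI -0.63 to 0.34). The sign was the same in experiment 1 (-0.51) and in experiment 2 (-1.21, or -0.50 without K130).

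**Figure D3:**
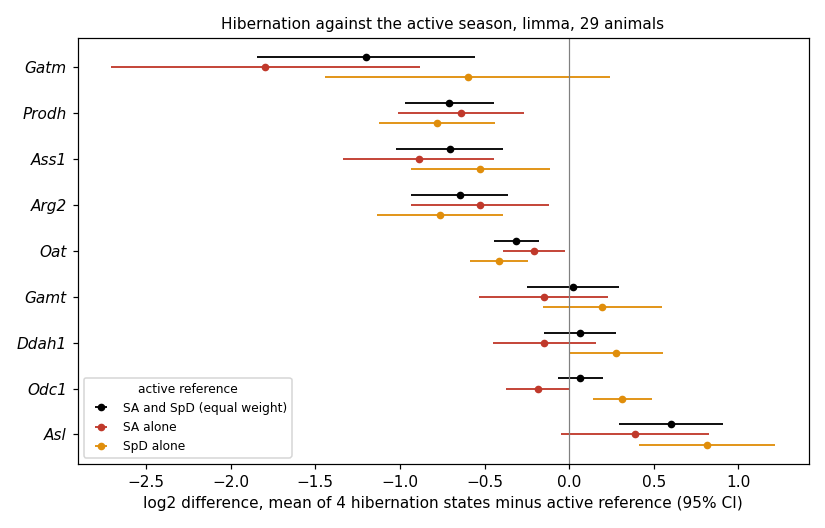
Log2 difference between the mean of the 4 hibernation states and the active states (horizontal axis), with 95% confidence intervals from limma on 29 animals; black uses SA and SpD with equal weight, red SA alone and orange SpD alone. Ass1, Arg2, Gatm, Oat and Prodh have estimates below 0 and Asl above 0 with every reference, while Odc1 is at -0.18 against SA and 0.32 against SpD.

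Odc1 followed another course, within the torpor cycle and in spring rather than between the seasons as wholes. It stood at 11.57, 11.65, 11.68, 11.89 and 12.02 in IBA. In Ent it was 11.16, 11.29, 11.35, 11.46 and 11.56. In LAr the 5 animals sat between 11.49 and 11.55 and in EAr between 11.37 and 11.60. IBA was above Ent without overlap, as for 7.74% of all genes, and above the 5 LAr animals without overlap, as for 13.7%. The set-aside LAr animal K113, at 11.70, was inside the IBA range, so the separation from LAr holds only without it. In SpD Odc1 was 10.97 (K130), 10.99, 11.38, 11.45 and 11.45, all below IBA, and SA held 11.43 to 11.89, with K137 apart at 11.18, inside the SpD range.

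From IBA to Ent Odc1 was lower by 0.40 ± 0.10 (SE, limma q = 0.013), and SpD was below IBA by 0.51 ± 0.10 (q = 0.0019). SA was above SpD by 0.50 ± 0.12 (q = 0.013), a call that ended without K130 (0.41, q = 0.10), with all 31 animals (0.39, q = 0.11) and with animal weights (0.39, q = 0.12). IBA minus LAr was 0.19 with an interval of -0.05 to 0.42 (q = 0.25). Without K130, SpD minus IBA was -0.46 (q = 0.0056) and Ent minus IBA -0.40 (q = 0.0098). Both directions held in each experiment, with Ent minus IBA at -0.51 and -0.23 and SpD minus IBA at -0.59 and -0.40 in experiments 1 and 2, the last being -0.16 without K130. In experiment 2 alone neither passed (q = 0.53 and 0.12). The season contrast was 0.065 (q = 0.46), with the SA mean (11.68) above and the SpD mean (11.25) below that of hibernation (11.53).

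Ddah1 had state means between 13.02 ± 0.51 in SpD and 13.40 ± 0.049 in EAr (SD, n = 5). Without K130, which stood at 12.13, the SpD mean was 13.24 ± 0.12. The set-aside animals were also low, K137 at 11.99 against 13.11 to 13.58 in SA and K113 at 12.50 against 13.08 to 13.40 in LAr. The season difference was 0.065 (95% CI -0.15 to 0.28, q = 0.66).

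Tested over the 6 states at once, none of the 9 enzymes was called at q under 0.001 by limma, which called 9.34% of all genes, and 7 of 9 passed both an unadjusted p under 0.05 and q under 0.05, which 56.0% and 46.1% of all genes passed. The 7 were Odc1 (q = 0.0022), Prodh (0.0030), Oat (0.0050), Ass1 (0.0078), Arg2 (0.012), Asl (0.015) and Gatm (0.034). Gamt had q = 0.29 and Ddah1 q = 0.15. Leaving out K130 brought 2 of them, Ass1 (q = 6.3e-04) and Prodh (q = 9.7e-04), past 0.001, and leaving out K9 brought 1, Oat (q = 4.3e-04). Across the states the study's test on counts called more genes at 0.001 than limma did, so these calls do not stand for those of the study.

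The study's 7 neighbouring pairs of states follow the year and the torpor cycle, and none of the 9 enzymes was called at 0.001 in any of them by limma. At that threshold the study's own test, on counts, called more genes than limma in each pair. An enzyme not called here may thus be one that the study called. The percentage of all genes called was 3.15% from SA to IBA, 0.746% from IBA to Ent, 0.132% from Ent to EAr, 0.295% from EAr to LAr, 1.43% from LAr to IBA, 1.25% from IBA to SpD and 0.0544% from SpD to SA. At an unadjusted p under 0.05 the pairs gave, in that order, 5, 1, 0, 0, 2, 6 and 3 of the 9, beside 36.3%, 29.4%, 7.16%, 8.33%, 33.4%, 26.6% and 29.1% of all genes. With q under 0.05 the counts were 3, 1, 0, 0, 0, 4 and 1 of 9, beside 22.9%, 13.1%, 0.257%, 0.575%, 18.0%, 11.9% and 10.5% of all genes.

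From SA to IBA the 3 enzymes past 0.05 were Ass1, Gatm and Prodh, which were also the 3 without overlap between these states, as 18.8% of all genes were. That holds for the 4 SA animals without K137, which overlapped with IBA for Ass1 and Gatm. Gatm was lower in IBA by 1.99 ± 0.58, a 3.96-fold difference, with IBA at 12.75, 13.39, 13.66, 14.19 and 14.30 (limma q = 0.016). Ass1 was lower by 1.24 ± 0.28 (q = 0.0032), with IBA at 13.57, 13.81, 14.26, 14.41 and 14.65. Prodh was lower by 0.76 ± 0.24 (q = 0.022), with IBA at 9.70, 9.82, 9.89, 10.12 and 10.12. Asl, Odc1 and Arg2 differed by 0.11, 0.014 and -0.35, none past the threshold. Prodh alone passed 0.001 in this pair when K130 was left out of the shared fit (-0.92, q = 7.1e-04). With all 31 animals Gatm was at -1.65 (q = 0.063) and no longer passed 0.05. Without K104 (IBA) neither Gatm (-1.63, q = 0.082) nor Prodh (-0.69, q = 0.080) passed, nor did Prodh without K139 (SA, -0.48, q = 0.11).

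From IBA to SpD the 4 past 0.05 were Odc1, lower in SpD, and Oat (0.46 ± 0.099, limma q = 0.0039), Prodh (0.91 ± 0.20, q = 0.0048) and Ass1 (0.88 ± 0.24, q = 0.018), higher in SpD. Odc1 and Prodh did not overlap between these states, as 6.51% of all genes did not. Without K130 these 4 values were -0.46, 0.37, 0.63 and 1.15, and Gatm became 1.34 (q = 0.044). Asl was 0.53 lower and Arg2 0.59 higher in SpD, neither past the threshold (q = 0.14 and 0.077), and without K130 they were 0.19 lower and 0.32 higher. Ass1 did not pass without K104 (0.78, q = 0.055) or K7 (0.74, q = 0.063), both IBA. Across torpor and rewarming, from Ent to EAr and from EAr to LAr, the largest difference of the 9 was 0.27, with q of 0.73 or more, and the intervals reached 1.34.

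The proximal tubule, where Ass1, Asl and Gatm are mainly expressed, gave its own markers an uneven level over the states, and in bulk tissue fewer cells of a type and less RNA per cell cannot be told apart. The mean of the 12 markers was 15.15 to 15.41 in SA, 13.90 to 14.76 in IBA, 14.24 to 15.09 in Ent, 14.68 to 15.10 in EAr, 14.61 to 14.99 in LAr and 13.25 to 15.22 in SpD. The 4 SA animals were above IBA and above all other hibernating animals, while the SpD animals other than K130 stood between 14.40 and 15.22. Of the set-aside animals, K137 (SA) was at 14.11, inside the IBA range, and K113 (LAr) at 13.82, below the LAr range. Of the 12 markers 3 were lower in hibernation at q under 0.05 and none higher, beside 16.8% and 16.6% of all genes, with a median season difference of -0.23. The 4 markers found of the S3 segment (of 5 searched) had a median of -0.80 with 3 lower. Markers of other kidney cells that passed were also lower, beside the same 16.8% of all genes, and counts this small are given as a description. They were 2 of 6 for principal cells and inner medulla, 2 of 4 for intercalated cells, 2 of 3 for endothelium, 2 of 3 for fibroblasts, 1 of 2 for the loop of Henle and 1 of 2 for the distal tubule, and 0 of 2 passed for podocytes and 0 of 3 for macrophages at limma q under 0.05.

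With the marker mean as a term in the fit, the SA to IBA differences of Ass1 and Gatm went from -1.24 to -0.42 (limma q = 0.18) and from -1.99 to -0.59 (q = 0.48). That of Prodh went from -0.76 to -1.16 (q = 0.0061), that of Arg2 from -0.35 to -1.12 (q = 8.1e-04) and that of Asl from 0.11 to 0.89 (q = 0.011). The season differences kept their signs, at -0.50 for Ass1, 0.80 for Asl, -0.83 for Arg2, -0.85 for Gatm, -0.36 for Oat and -0.81 for Prodh, with q of 0.0095 or less for each. Ddah1 became 0.21 higher in hibernation (q = 0.014). SA and IBA did not overlap in the marker mean, so their adjusted differences rest on a slope carried across a gap. K130, the lowest animal for the marker mean, is in this fit, and the fit without it is not given. The part of the tubule markers in these results was not tested beyond this fit.

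**Figure D4:**
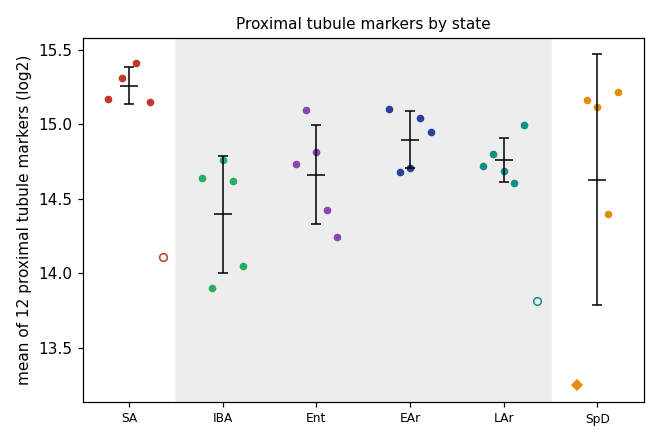
Mean of 12 proximal tubule markers (log2, vertical axis) for each animal by state; bars are the mean ± SD of the 29 animals, the diamond is K130 and hollow points are K113 and K137. The SA animals in the bars sit at 15.15 to 15.41, IBA animals at 13.90 to 14.76, K130 at 13.25, K137 at 14.11 and K113 at 13.82.

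Over the 29 animals the highest Pearson's r between the enzymes were those of Arg2 with Oat (0.82), Ass1 with Gatm (0.73), Asl with Ddah1 (0.68) and Oat with Prodh (0.62). Without K130 these were 0.78, 0.70, 0.33 and 0.49, while Ass1 with Prodh went from 0.36 to 0.73 and Gatm with Prodh from 0.23 to 0.61. That animal thus raised the r of some pairs, most of all Asl with Ddah1, and lowered that of others. Asl had negative r with Arg2 (-0.84), Oat (-0.73) and Prodh (-0.69), which were -0.79, -0.66 and -0.42 without K130. Ass1 and Asl had r of 0.028, or -0.26 without K130. After each state's mean was taken off, their r was 0.60 with K130 and 0.24 without it. These correlations share the same libraries and the states, and are given as a description.

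**Figure D5:**
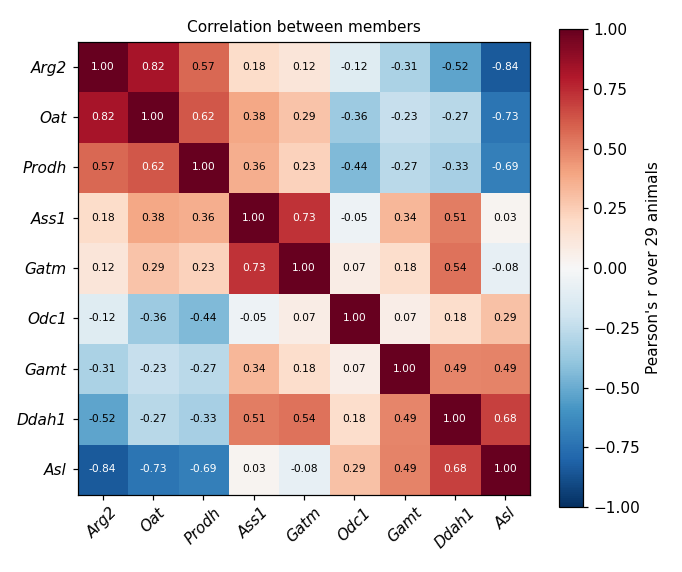
Pearson's r between the 9 enzymes over 29 animals, from -1 (blue) to 1 (red), with the value in each cell. Arg2 and Oat are at 0.82, and Asl is at -0.84 with Arg2 and 0.03 with Ass1.

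No enzyme passed the 0.001 threshold over the states, so the genes most like each are given for the 7 that passed 0.05, a rule relaxed after the values were seen. With Ass1 the highest r over 29 animals were those of Acsm5 (0.91), Aldh7a1 (0.91) and Aldh8a1 (0.89). With Asl they were Chst11 (0.92), Tfcp2 (0.91) and Galns (0.91), and with Arg2 Ppm1k, Gltp and Inpp1 (0.88, 0.88 and 0.87). Gatm was nearest to Slc34a1, the sodium phosphate cotransporter of the proximal tubule and 1 of the 12 markers (0.90), to Ddc (0.89) and to a HPD-like gene (0.89). Oat was nearest to Oxct1, which begins ketone body use (0.90), FUT5 (0.88) and Ldhb (0.88). Odc1 was nearest to Dph3 (0.85), Clrn3 (0.81) and Hspa4l (0.80), and Prodh to Gucy1b3 (0.83), Veph1 (0.80) and Metrn (0.80). Without K130 the lowest of these r was 0.65, that of Metrn with Prodh.

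Around the 9 enzymes, 58 of 70 listed genes of arginine, proline, creatine, polyamine and nitric oxide metabolism had a row, and the other 12, among them Cps1, Otc and Arg1 of the liver's urea cycle, were not matched by symbol and are not analysed here. Over the states 7 of the 58 passed q under 0.001 and 35 passed 0.05, beside 9.34% and 46.1% of all genes. Between seasons 9 passed 0.001, 3 higher and 6 lower in hibernation, beside 4.43% and 5.29% of all genes in those directions. At 0.05 there were 28, 13 higher and 15 lower, beside 16.6% and 16.8%. The median season difference of the 58 was -0.06, beside 0.00024 over all genes.

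Of the 7, those lower in hibernation were Agxt2, a mitochondrial aminotransferase that also removes methylated arginines (-0.77 ± 0.088 SE, limma q = 1.1e-06), and Slc6a20, a proline transporter (-1.29 ± 0.19, q = 2.7e-05). Glul, glutamine synthetase, was lower by 0.87 ± 0.12 (q = 7.8e-06), Glud1, glutamate dehydrogenase, by 0.44 ± 0.070 (q = 5.7e-05), and P4ha1, a collagen prolyl hydroxylase subunit, by 0.35 ± 0.048 (q = 9.9e-06). Higher in hibernation were Sat1, which acetylates polyamines for export and breakdown (0.66 ± 0.076, q = 1.2e-06), and Azin2, which relieves Odc1 from antizyme (0.29 ± 0.062, q = 9.6e-04). The mean of Azin2 in IBA, 7.78, was near those of SA (7.69) and SpD (7.79), with IBA minus SA at 0.041 (q = 0.83), and Ent (8.11), EAr (8.02) and LAr (8.20) were higher. Prmt1, which methylates arginine in proteins (0.17, q = 8.5e-04), also passed in the season contrast and is named after its values were seen. K130 is in all of these season differences, and values without it are not given.

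Sat1 passed in the seasonal contrast in which Odc1 did not, and the difference between the genes was not tested. Its state mean was 11.15 ± 0.13 in SA, 12.03 ± 0.15 in IBA, 11.95 ± 0.078 in Ent, 11.98 ± 0.082 in EAr, 11.98 ± 0.14 in LAr and 11.51 ± 0.41 in SpD (SD). From SA to IBA it was higher by 0.94 ± 0.14 (SE, limma q = 7.7e-05), where Odc1 differed by 0.014 (95% CI -0.23 to 0.26). Agxt2 was lower in that step by 1.29 ± 0.16 (q = 1.8e-05), where Ddah1, which also acts on methylated arginines, was lower by 0.41 ± 0.19 and did not pass (q = 0.12).

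Sex was called for none of the 9 enzymes by limma at either threshold, beside 0.0233% of all genes at 0.001 and 0.218% at 0.05, and 2 had an unadjusted p under 0.05, as did 6.41% of all genes. These were Arg2 and Oat, lower in males by 0.30 ± 0.13 and 0.16 ± 0.060 (SE, q = 0.74 and 0.61). Whether the season difference itself varied with sex was asked in a fit with that interaction, in which none of the 9 and 0% of all genes passed q under 0.05 by limma, and 1 of the 9, Gatm, had an unadjusted p under 0.05, as did 4.63% of all genes. For Gatm the season difference was 1.82 ± 0.53 less negative in males (limma q = 0.78). Its 3 SpD females averaged 15.57 and its 2 SpD males, K130 and K9, 12.77, while in Ent the 3 females averaged 13.29 and the 2 males 14.71. In SA, the other active state, the 2 females averaged 15.37 and the 2 males 15.58. Female and male means of Gatm were 13.75 and 13.53 in IBA, 13.83 and 13.90 in EAr, and 13.53 and 13.88 in LAr.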

How the data were processed

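Kidney poly(A) RNA was sequenced by the authors, and the 31 animals in the table were analysed here. Adaptors and low-quality bases were cut with cutadapt, reads of mitochondrial origin were filtered out after HISAT2 mapping, and the rest were assigned by Salmon to transcripts annotated on HiC_Itri_2. The authors took gene sums, kept genes above an rlog minimum, transformed them in DESeq2 and corrected for experiment with limma. The deposited values are these batch-corrected log2 (rlog) values, which draw low counts toward the gene's mean, and the means of both experiments are equal in them, so a state difference confounded with experiment may have been reduced. The authors tested counts, not analysed here.

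State, sex and kit came from the labels. limma (version 3.58.1, R 4.3.3) was fitted to all 12863 rows of 29 animals with state, sex and library kit as terms and an intensity trend, and Benjamini-Hochberg adjustment was made within each contrast. A call is q under 0.001, and q under 0.05 is a looser threshold. The fit was tested on simulated data. Each animal is 1 replicate. Not every pathway gene that passed is reported here. Every member was named, pathway genes were named at q under 0.001 over the states, and likeness was ranked by Pearson's r. The members and lists were chosen with earlier results of these data known. Gene names were looked up in RefSeq (9 of 9 found), Prodh by its gene ID and the others by symbol. This lookup compared no sequence or position, so whether the PRODH-like row is Prodh was not tested. No sequences or coordinates were used here, so promoter motifs were not searched. Alternatives covered animals, terms, weights, thresholds, filters, centring and leaving out each animal.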

Additional observations from a re-analysis of the deposited data

Results flagged for a closer look

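In 7 of 54 groups of 4 or 5 animals, the highest or lowest animal's gap to its nearest neighbour took up an unusually large share of the group's range (Dixon's 95% limit); chance gives about 1 in 20 groups. K130 in SpD was marked for Ass1 at 13.88 (share 0.832), Prodh at 11.84 (0.727) and Ddah1 at 12.13 (0.778). K130 also had the lowest proximal tubule marker mean, 13.25. The others were Ass1 in LAr, where K115 stood at 14.11 with the next animal at 14.65 (0.726), Gatm in LAr, where K116 stood at 14.23 with the next at 13.59 (0.801), Gamt in LAr, where K111 stood at 10.89 with the next at 10.30 (0.749), and Prodh in EAr, where K165 stood at 10.68 with the next at 10.14 (0.783). The causes were not tested.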

How the results depend on the processing

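Of 4221 values under other settings, 3968 stayed within their limits, 18 fell below and 71 passed the threshold, 164 moved and 0 reversed. That 0 does not mean that every sign held. Without K130, SA minus SpD went from 0.36 to -0.067 for Ass1 and from 0.43 to -0.11 for Asl. It went from -0.24 to 0.19 for Arg2 and from -0.14 to 0.29 for Prodh, and kept its sign for the other enzymes. The season difference of Gamt, near 0, kept its sign in 34 of 44 settings. The count of enzymes called between seasons (2) was 4 without the kit term, 1 without the sex term, 6 at q under 0.01 and at 0.05, 5 with the tubule marker mean as a term, and 0 against SA alone and 0 against SpD alone (these added after seeing the data). Over the 6 states (0) it was 1 with animal weights, 2 in experiment 2 alone, 4 at 0.01, 7 at 0.05, 4 with the marker mean and 1 in all 31 animals without K130 (added after seeing the data). From IBA to Ent (0) it was 1 with animal weights and 1 at 0.05. From SA to IBA (0) it was 1 at 0.01, 3 at 0.05 and 1 with the marker mean. From IBA to SpD (0) it was 3 at 0.01, 4 at 0.05 and 3 with the marker mean. From SpD to SA (0) it was 1 at 0.05. Leaving out 1 animal gave 1 to 4 between seasons (1 without K111, K138, K139, K141, K155, K156, K157, K6 or K84, and 4 without K9), 0 to 2 over the states (2 without K130, 1 without K9), 0 to 1 from SA to IBA (1 without K130) and 0 to 1 from IBA to SpD (1 without K9). Prodh passed 0.001 between seasons in all 29 fits that left out 1 animal, and Oat in 19. With animal weights Prodh still passed (limma q = 3.2e-04), Gatm also passed (-1.38, q = 4.3e-04) and Oat did not (q = 0.0022). In experiment 2 alone 3 passed between seasons, Asl (q = 1.8e-04), Arg2 (q = 1.7e-05) and Oat (q = 1.1e-05), while Prodh (q = 0.0016) did not and Ass1 (-0.47, q = 0.070) and Gatm (-0.87, q = 0.073) missed 0.05. In fits of 2 states alone, Ass1 and Prodh from SA to IBA, Ass1, Oat and Odc1 from IBA to SpD, Odc1 from IBA to Ent and Odc1 from SpD to SA no longer passed 0.05 (q between 0.069 and 0.13). The cause was not tested, other than that fewer animals give wider intervals. No paired analysis was possible because the replicate numbers only name the animals, each of which was sampled in 1 state.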
